A study of Homo sapiens with 10 samples.

Results

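HMGA1, HMGA2, ARID3B, PLAGL2, NR6A1, LIN28B, IGF2BP1, IGF2BP2 and IGF2BP3 are targets of the let-7 microRNAs, oncofetal genes, or both. Oncofetal genes are active in the embryo, mostly silent in adult tissue and often active again in tumours. The 9 genes were taken by symbol, and all 9 were found among the 18480 genes of each of 2 deposited tables, one for each long noncoding RNA (lncRNA) that was silenced. All arrays came from HEK-293, an established line from human embryonic kidney that carries adenovirus genes and expresses kidney and neuronal genes. The cells were transfected with RNAiMax and 10 nM of a small interfering RNA (siRNA), the controls included, and no untransfected cells were analysed here. The 5 groups were scramble siRNA, LINC00324 siRNA 1, LINC00324 siRNA 2, LOC400043 siRNA 1 and LOC400043 siRNA 2, with 2 biological replicates each on Affymetrix HuGene-1_0-st arrays. The series concerns lncRNAs and circular RNAs that may act as microRNA sponges.

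let-7 microRNAs accumulate as cells differentiate. Loaded into an Argonaute protein, let-7 pairs through its seed, a short stretch near its 5′ end, with sites that lie mostly in 3′ untranslated regions, and lowers the stability and translation of those mRNAs. LIN28B and its relative LIN28A bind let-7 precursors and block their maturation, while their own mRNAs are let-7 targets, which forms a feedback loop. In embryonic tissue and in cancers with high LIN28, the other genes of the group are typically high as well. A sponge RNA would hold a microRNA away from such targets, so that the targets of a bound microRNA would be predicted to fall when the sponge is lost. The comparison of each siRNA with scramble therefore asks whether these 9 genes differed in cells with either lncRNA silenced.

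The mature let-7 sequences are shown because all of them share one seed, so a target site for one member is a seed match for all. The sequences are RefSeq's (GRCh38.p14), 5′ to 3′, for 9 mature RNAs made from 12 gene copies, with seed bases 2 to 8 in capitals. A target mRNA would carry the complement of these capitals.
let-7a: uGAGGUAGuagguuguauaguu
let-7b: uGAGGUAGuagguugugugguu
let-7c: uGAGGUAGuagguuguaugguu
let-7d: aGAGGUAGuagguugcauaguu
let-7e: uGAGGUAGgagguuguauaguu
let-7f: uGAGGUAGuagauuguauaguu
let-7g: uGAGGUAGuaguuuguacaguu
let-7i: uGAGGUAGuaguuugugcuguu
miR-98: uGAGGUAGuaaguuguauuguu
The 9 RNAs hold 1 distinct seed. Outside the seed, let-7i differs from let-7a at 4 bases, the most of the 9. The arrays measure mRNAs and some long precursors, not mature microRNAs, so let-7 itself was not analysed here.

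Values are log2 values, so that a difference of 1 is a doubling of signal, and array medians lay between 7.53 and 7.73. The tables were normalized separately, so levels are compared within a table only, and all comparisons with scramble share the same 2 control arrays. LINC00324 measured 5.79 and 5.80 in scramble cells, 5.37 and 5.03 with siRNA 1, and 5.24 and 5.60 with siRNA 2. No LINC00324 siRNA array reached the controls, although the mean difference of -0.49 was not called (limma, Benjamini-Hochberg adjusted p = 0.185). In the LOC400043 table the same probe set measured 5.76 and 5.58 in scramble cells, 5.42 and 5.42 with siRNA 1, and 5.47 and 5.43 with siRNA 2. Those siRNA arrays also lay below both controls (mean difference -0.23, limma adjusted p = 0.0570), so such a fall was not particular to LINC00324 siRNAs. All of these levels lay below the array medians. No probe set of LOC400043 was matched, so its silencing was not analysed here. Of 7 kidney progenitor and neuronal markers of HEK-293, 6 were measured, with mean levels from 6.67 to 11.16, and PTPRC (blood), DCN and LUM (fibroblast) and ALB (liver) had mean levels of 3.70 to 4.63. The 5 squamous markers had mean levels of 4.92 to 7.20. The highest marker of those other cell types was COL1A1, at 8.09 in the LINC00324 table.

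Against scramble, a call means an adjusted p under 0.05 from limma with Benjamini-Hochberg adjustment over all 18480 genes of the contrast. With LINC00324 siRNA 1, 2 of the 9 genes fell, PLAGL2 and NR6A1, where 0.281% of all genes were called lower. With LINC00324 siRNA 2, 4 fell (HMGA2, PLAGL2, IGF2BP2 and the probe set named ARID3B, which lies away from the ARID3B gene), where 1.34% of all genes were called lower. With LOC400043 siRNA 1, 4 fell (HMGA2, PLAGL2, IGF2BP2 and IGF2BP3), where 7.46% of all genes were called lower. With LOC400043 siRNA 2, 3 fell (HMGA2, IGF2BP1 and IGF2BP3), where 13.8% of all genes were called lower. None of the 9 was called higher with any of the 4 siRNAs, while 0.216%, 0.503%, 4.05% and 7.9% of all genes were, in the order given. LIN28B with LOC400043 siRNA 2 only just missed a call, at 0.24 (limma adjusted p = 0.05002), and was called higher under several alternatives. The arrays read RNA of whole cultures, so fewer cells that express a gene and less RNA per cell cannot be told apart.

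The median log2 difference of the 9 genes was -0.20 with LINC00324 siRNA 1 and -0.15 with siRNA 2, beside 0.02 and 0.01 over all genes. It was -0.22 with LOC400043 siRNA 1 and -0.19 with siRNA 2, beside 0.03 and 0.01 over all genes. All 9 genes had mean levels of at least 8.02, above the array medians. Among genes at least as bright as the dimmest of the 9, 0.491% and 2.03% were called lower with LINC00324 siRNA 1 and 2, and 12.4% and 21.9% with LOC400043 siRNA 1 and 2. Single arrays ended LINC00324 calls against scramble. Without scramble replicate 1, scramble replicate 2, or either replicate of LINC00324 siRNA 2, limma called 0 of the 9 genes and 0 of all 18480 against scramble with either siRNA, with 3 of the 9 at an unadjusted p under 0.05 for siRNA 1 and 4 for siRNA 2. Over all alternatives run, those included, NR6A1 lay between -1.14 and -1.03 and PLAGL2 between -0.90 and -0.70 with siRNA 1. HMGA2 lay between -0.88 and -0.65 with siRNA 2. The called differences kept their direction, which leaving out 1 array could not change, as the compared arrays did not overlap. Without LINC00324 siRNA 1 replicate 1, 1 gene was called with siRNA 1, NR6A1, with PLAGL2 at -0.70 (limma adjusted p = 0.0537). Without LOC400043 siRNA 1 replicate 1 or 2, the calls of the 9 with that siRNA ended, and the calls over all genes became far fewer as well. HMGA2 was then at -0.60 and -0.62, IGF2BP3 at -0.39 and -0.46, PLAGL2 at -0.34 and -0.37, and IGF2BP2 at -0.33 and -0.36.

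**Figure D1:**
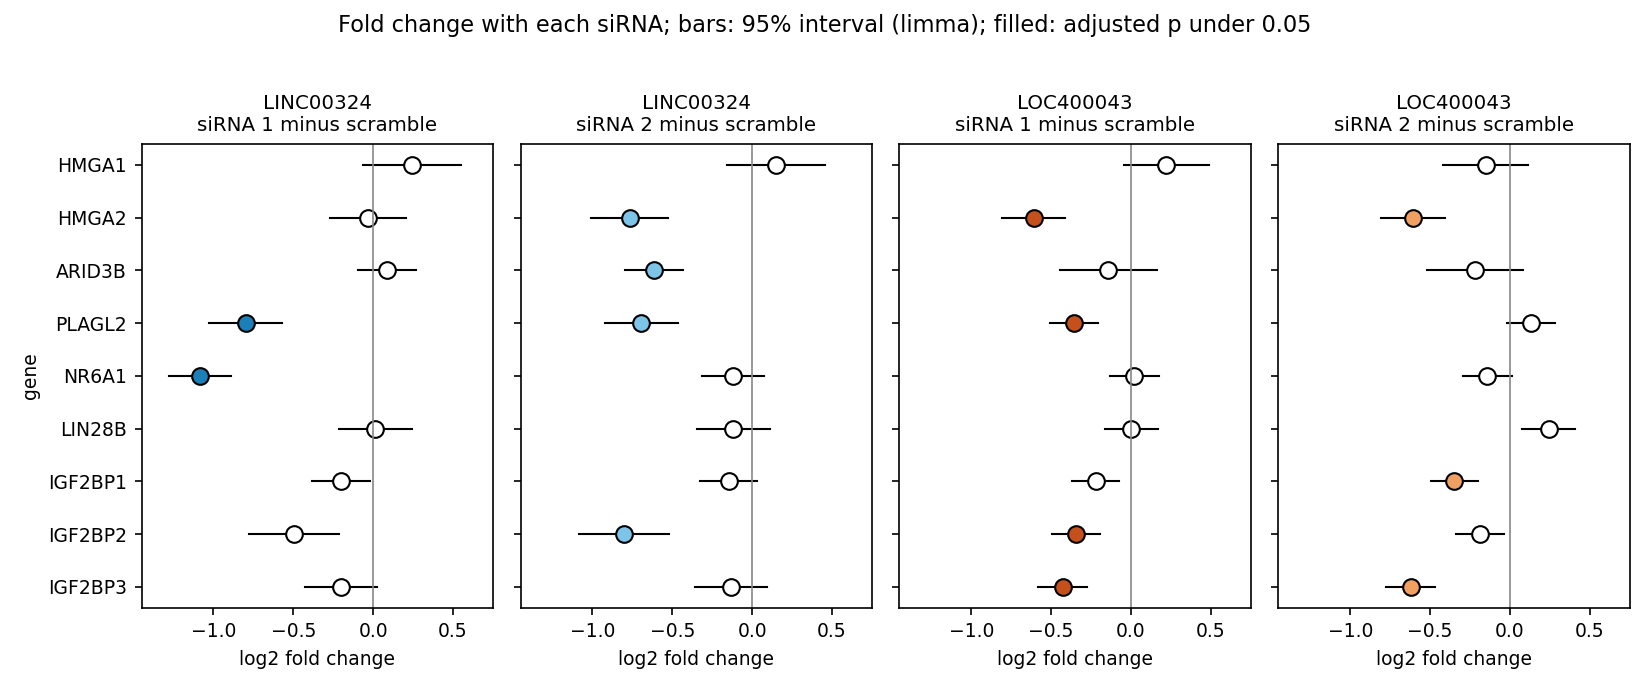
Log2 difference from scramble for each of the 9 genes (vertical axis) with each of the 4 siRNAs (one panel each), as points with the 95% interval from limma; filled points are called at an adjusted p under 0.05. Every filled point lies below 0, NR6A1 with LINC00324 siRNA 1 lies lowest at -1.08, and ARID3B is another probe set in the LINC00324 panels than in the LOC400043 panels.

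PLAGL2 and NR6A1 encode DNA-binding transcription factors. PLAGL2 is a zinc-finger activator related to PLAG1, which drives IGF2, and NR6A1, or germ cell nuclear factor, is an orphan nuclear receptor that silences pluripotency genes as embryonic cells differentiate. Coordinates are those of the tables, whose genome build the sources used here do not name. PLAGL2 (chr20:30780307-30795544, minus strand, 20 probes) measured 10.22 and 10.19 in scramble cells, 9.31 and 9.51 with LINC00324 siRNA 1, and 9.54 and 9.49 with LINC00324 siRNA 2. Neither siRNA group reached the controls, and the siRNA groups overlapped each other. PLAGL2 fell by 0.80 with siRNA 1 (SE 0.09, 95% interval -1.03 to -0.57, limma adjusted p = 0.0334), to 57.5% of scramble. It fell by 0.69 with siRNA 2 (SE 0.09, 95% interval -0.92 to -0.47, limma adjusted p = 0.0274), to 61.9% of scramble. It was the only one of the 9 genes called with both LINC00324 siRNAs, and the difference between the siRNAs was -0.11 (95% interval -0.33 to 0.12, limma adjusted p = 0.691).

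In the LOC400043 table PLAGL2 measured 10.10 and 10.15 in scramble cells, 9.75 and 9.79 with siRNA 1, and 10.26 and 10.27 with siRNA 2. The siRNA 1 arrays lay below both controls and the siRNA 2 arrays above both. PLAGL2 fell by 0.36 with siRNA 1 (SE 0.06, limma adjusted p = 0.0163), to 78.1% of scramble, while the difference with siRNA 2 was 0.13 (limma adjusted p = 0.194). The direct comparison of siRNA 1 with siRNA 2 gave -0.49 (SE 0.06, 95% interval -0.64 to -0.34, limma adjusted p = 0.00359), the only one of the 9 genes called between the LOC400043 siRNAs, where 7.5% of all genes were called lower and 9.63% higher.

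NR6A1 (chr9:127279559-127533589, minus strand, 40 probes) measured 9.62 and 9.63 in scramble cells and 8.49 and 8.60 with LINC00324 siRNA 1. With LINC00324 siRNA 2 it measured 9.53 and 9.49, just below the controls. It fell by 1.08 with siRNA 1 (SE 0.08, 95% interval -1.28 to -0.89, limma adjusted p = 0.0141), to 47.2% of scramble, a 2.12-fold difference and the largest of the 9 genes in any comparison with scramble. With siRNA 2 the difference was -0.12 (95% interval -0.31 to 0.08, limma adjusted p = 0.590), and siRNA 1 minus siRNA 2 was -0.97 (SE 0.08, limma adjusted p = 0.0120). The mean of both siRNAs, -0.60 (limma adjusted p = 0.0338), thus averages a gene called with one siRNA and not with the other. In the LOC400043 table NR6A1 measured 9.65 and 9.59 in scramble cells, 9.65 and 9.64 with siRNA 1, and 9.47 and 9.49 with siRNA 2. Its differences there were 0.02 with siRNA 1 (limma adjusted p = 0.862) and -0.14 with siRNA 2 (limma adjusted p = 0.176), neither called.

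HMGA1, HMGA2 and ARID3B encode proteins that bind AT-rich DNA. HMGA1 and HMGA2 are small chromatin proteins that bend DNA and help transcription factors assemble. HMGA2 mRNA carries several let-7 sites in its 3′ untranslated region and is the classical let-7 target in tumours, and ARID3B works in embryonic mesenchyme and neuroblastoma. HMGA2 (chr12:66218238-66360071, plus strand, 31 probes) measured 8.50 and 8.51 in scramble cells, 8.44 and 8.50 with LINC00324 siRNA 1, and 7.62 and 7.86 with LINC00324 siRNA 2. The siRNA 1 arrays lay close to the controls, and the siRNA 2 arrays lay well below both. HMGA2 fell by 0.77 with siRNA 2 (SE 0.10, 95% interval -1.01 to -0.53, limma adjusted p = 0.0257), to 58.8% of scramble, a 1.70-fold difference. With siRNA 1 the difference was -0.03 (95% interval -0.27 to 0.21, limma adjusted p = 0.914), and siRNA 1 minus siRNA 2 was 0.74 (SE 0.10, limma adjusted p = 0.0225).

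With both LOC400043 siRNAs HMGA2 was lower by nearly equal amounts. It measured 8.32 and 8.53 in scramble cells, 7.81 and 7.83 with siRNA 1, and 7.83 and 7.81 with siRNA 2. Each pair of siRNA arrays was tight, and the wider spread was that of the controls. HMGA2 fell by 0.61 with siRNA 1 (SE 0.08, limma adjusted p = 0.00729), to 65.5% of scramble, and by 0.61 with siRNA 2 (SE 0.08, limma adjusted p = 0.00372), to 65.7% of scramble. The difference between the siRNAs was -0.00 with a 95% interval of -0.20 to 0.20 (limma adjusted p = 0.988).

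HMGA1 (chr6:34204650-34214008, plus strand, 18 probes) was called in none of the comparisons with scramble. It measured 9.29 and 9.08 in scramble cells, 9.29 and 9.58 with LINC00324 siRNA 1, and 9.40 and 9.28 with siRNA 2. Its 3 groups overlapped, and its replicates differed by more than those of any other of the 9 genes in the scramble and LINC00324 siRNA 1 groups of that table. The differences were 0.24 with siRNA 1 (SE 0.13, limma adjusted p = 0.487) and 0.15 with siRNA 2 (SE 0.13, limma adjusted p = 0.688). In the LOC400043 table HMGA1 measured 9.12 and 8.87 in scramble cells, 9.26 and 9.17 with siRNA 1, and 8.95 and 8.74 with siRNA 2, with differences of 0.22 (limma adjusted p = 0.258) and -0.15 (limma adjusted p = 0.405). HMGA1 and HMGA2 thus had different outcomes on the same arrays, with HMGA2 called with 3 siRNAs and HMGA1 with none, although a difference between the paralogues was not tested.

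The symbol ARID3B names different probe sets in the 2 tables. In the LINC00324 table it is a probe set of 19 probes over 708 bases at chr1:81967455-81968162 (plus strand), and in the LOC400043 table one of 11 probes at chr15:74833547-74890472 (plus strand). ARID3B lies on chromosome 15 in RefSeq. By start position, ADGRL4 and ADGRL2 come just before the chromosome 1 probe set and TTLL7 and PRKACB just after it. Among the genes that the table names, the same ones come before and after the pseudogene ARID3BP1 in RefSeq. Whether a gene that starts before the probe set also spans it was not analysed here. Signal from the pseudogene and from ARID3B itself cannot be told apart here.

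The chromosome 1 probe set measured 9.35 and 9.34 in scramble cells, 9.45 and 9.42 with LINC00324 siRNA 1, and 8.77 and 8.70 with siRNA 2. The siRNA 2 arrays alone lay below the controls. It fell by 0.61 with siRNA 2 (SE 0.08, limma adjusted p = 0.0243), to 65.3% of scramble, and its difference with siRNA 1 was 0.09 (limma adjusted p = 0.673). The chromosome 15 probe set of the same arrays, read from the deposited table of all arrays, measured 8.42 and 8.44 in scramble cells, 8.16 and 8.53 with siRNA 1, and 8.15 and 7.93 with siRNA 2. Its siRNA 2 arrays also lay below both controls, but its difference of -0.39 (SE 0.14, 95% interval -0.72 to -0.05) was not called (limma adjusted p = 0.238). With LOC400043 siRNAs the chromosome 15 probe set measured 8.15 and 8.16 in scramble cells, 8.20 and 7.83 with siRNA 1, and 7.85 and 8.03 with siRNA 2, and neither difference, -0.14 (limma adjusted p = 0.524) or -0.22 (limma adjusted p = 0.284), was called. The count of 4 genes with LINC00324 siRNA 2 is 3 when the chromosome 15 probe set stands for ARID3B, an alternative chosen after seeing the data.

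IGF2BP1, IGF2BP2 and IGF2BP3 encode a family of RNA-binding proteins with K homology domains that bind and stabilise mRNAs, among them IGF2 and MYC mRNA. IGF2BP1 and IGF2BP3 are the strictly oncofetal members, while IGF2BP2 is kept in some adult tissues. IGF2BP2 (chr3:185361527-185542827, minus strand, 23 probes) measured 9.67 and 9.61 in scramble cells, 9.02 and 9.26 with LINC00324 siRNA 1, and 8.95 and 8.73 with siRNA 2. The arrays of both siRNAs were lower than the controls. It fell by 0.80 with siRNA 2 (SE 0.12, 95% interval -1.08 to -0.52, limma adjusted p = 0.0322), to 57.3% of scramble, a 1.74-fold difference. With siRNA 1 the difference of -0.50 was not called (SE 0.12, 95% interval -0.78 to -0.22, limma adjusted p = 0.153), and the difference between the siRNAs, 0.30, was not called either (limma adjusted p = 0.247).

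In the LOC400043 table IGF2BP2 measured 9.57 and 9.62 in scramble cells, 9.23 and 9.27 with siRNA 1, and 9.41 and 9.40 with siRNA 2. It fell by 0.34 with siRNA 1 (SE 0.06, limma adjusted p = 0.0182), to 78.8% of scramble, and its difference with siRNA 2 was -0.19 (limma adjusted p = 0.0833). The 3 groups did not overlap, but siRNA 1 minus siRNA 2 was -0.16 and not called (limma adjusted p = 0.146). Without scramble replicate 2 the siRNA 1 value was -0.32 with a limma adjusted p of 0.0537.

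IGF2BP3 (chr7:23349828-23509995, minus strand, 21 probes) measured 9.87 and 9.88 in scramble cells of the LOC400043 table, 9.41 and 9.48 with siRNA 1, and 9.23 and 9.27 with siRNA 2. It was lower with siRNA 1 and lowest with siRNA 2, with no overlap. It fell by 0.43 with siRNA 1 (SE 0.06, limma adjusted p = 0.0101), to 74.4% of scramble, and by 0.62 with siRNA 2 (SE 0.06, 95% interval -0.77 to -0.47, limma adjusted p = 0.00158), to 65.0% of scramble, while the difference of 0.19 between the siRNAs was not called (limma adjusted p = 0.0927). In the LINC00324 table IGF2BP3 measured 9.83 and 9.91 in scramble cells, 9.58 and 9.76 with siRNA 1, and 9.76 and 9.71 with siRNA 2. Those differences, -0.20 (limma adjusted p = 0.429) and -0.13 (limma adjusted p = 0.603), were not called.

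IGF2BP1 (chr17:47074774-47133507, plus strand, 46 probes) measured 11.56 and 11.58 in scramble cells of the LOC400043 table, 11.34 and 11.36 with siRNA 1, and 11.22 and 11.22 with siRNA 2. The order was the same as for IGF2BP3. IGF2BP1 fell by 0.35 with siRNA 2 (SE 0.06, limma adjusted p = 0.00929), to 78.5% of scramble, and its difference with siRNA 1 was -0.22 (limma adjusted p = 0.0694). The siRNA 2 call ended without LOC400043 siRNA 2 replicate 1 (limma adjusted p = 0.0619) or replicate 2 (limma adjusted p = 0.0592), with the value at -0.35 both times. In the LINC00324 table IGF2BP1 measured 11.63 on both scramble arrays, 11.45 and 11.41 with siRNA 1, and 11.51 and 11.46 with siRNA 2. The differences of -0.20 (limma adjusted p = 0.331) and -0.15 (limma adjusted p = 0.431) were small and not called, although no array of either siRNA reached the controls.

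LIN28B (chr6:105404923-105531206, plus strand, 20 probes), the inhibitor of let-7 maturation in this group, was not called with any siRNA. It measured 9.38 and 9.48 in scramble cells of the LINC00324 table, 9.35 and 9.53 with siRNA 1, and 9.27 and 9.35 with siRNA 2, with differences of 0.01 (limma adjusted p = 0.968) and -0.12 (limma adjusted p = 0.667). In the LOC400043 table it measured 9.43 and 9.54 in scramble cells, 9.46 and 9.52 with siRNA 1, and 9.72 and 9.74 with siRNA 2. The siRNA 2 arrays lay above both controls, the opposite side from most of the group. That difference of 0.24 (SE 0.07, 95% interval 0.08 to 0.41, 118% of scramble) had a limma adjusted p of 0.05002, just above the threshold, and 0.00 was found with siRNA 1 (limma adjusted p = 0.995). It was called without scramble replicate 2, at 0.30 (limma adjusted p = 0.0439).

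**Figure D2:**
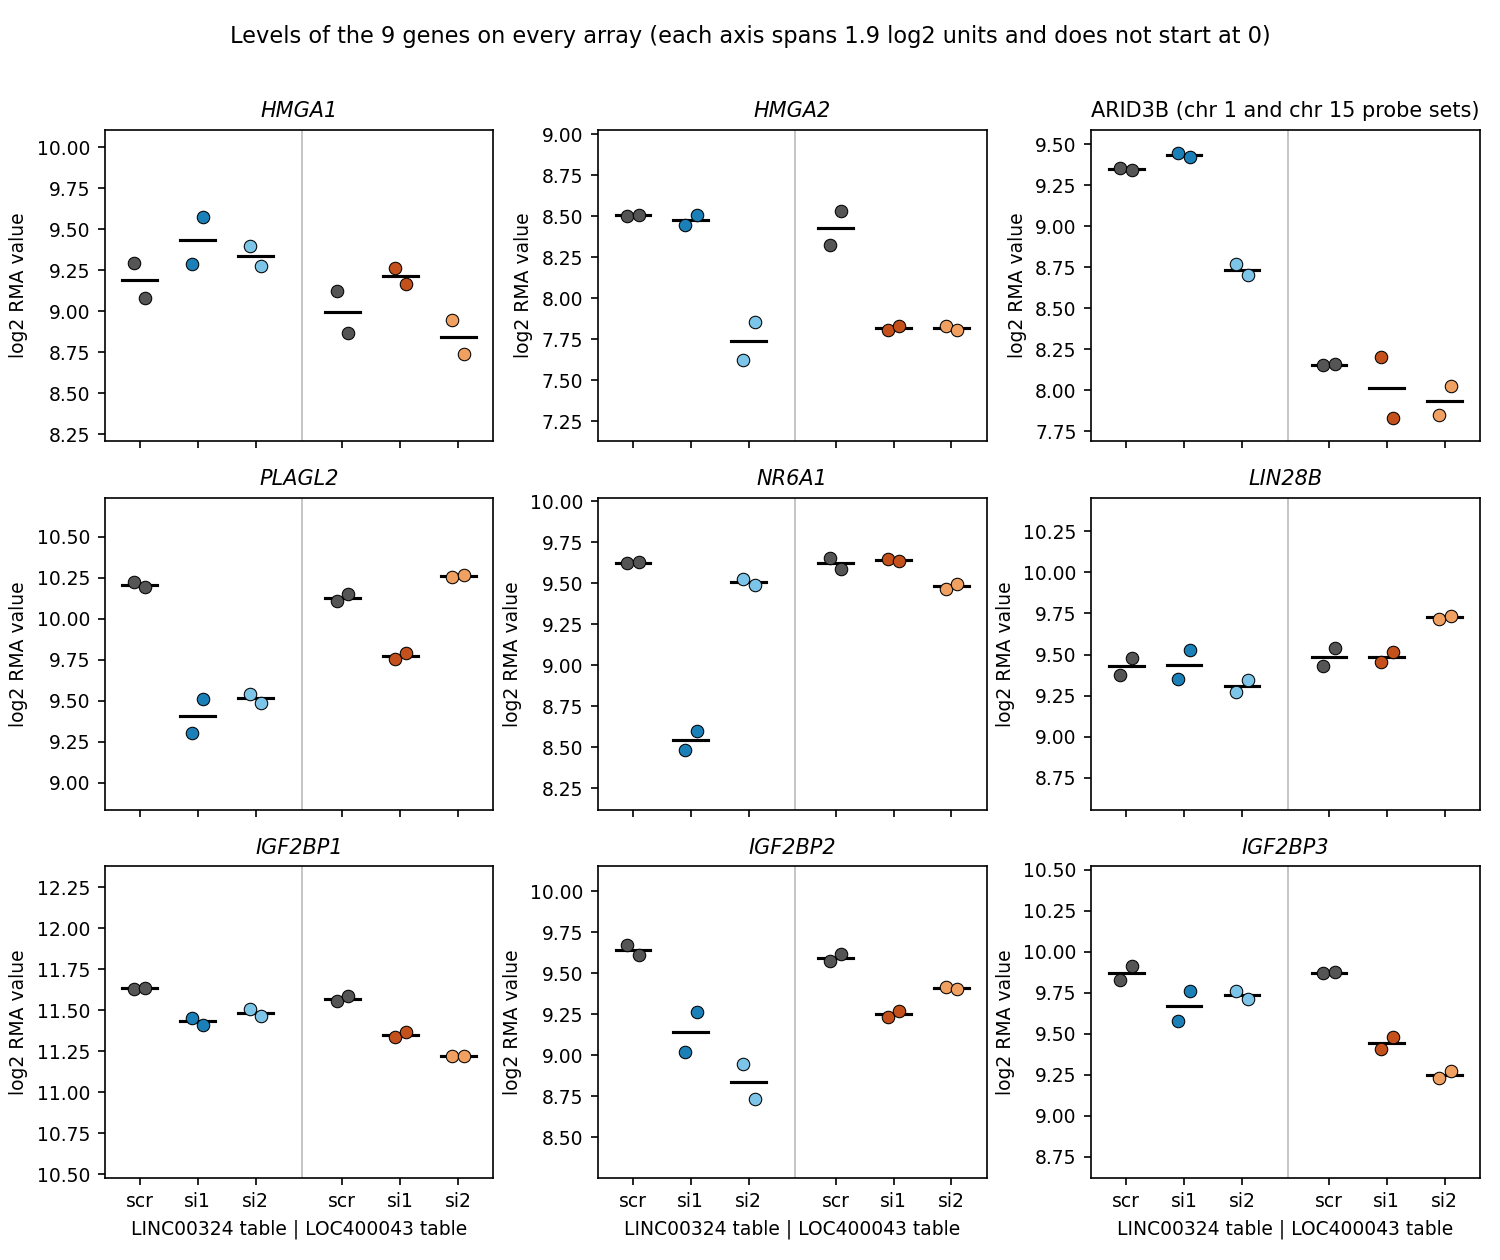
Log2 RMA values of the 9 genes on each array (points) with group means (bars), one panel per gene; scr is scramble, si1 and si2 are the siRNAs, the LINC00324 table is left of the grey line and the LOC400043 table right of it. HMGA2 is low with LINC00324 siRNA 2 (7.62 and 7.86) and both LOC400043 siRNAs, NR6A1 is low with LINC00324 siRNA 1 alone (8.49 and 8.60), and LIN28B is highest with LOC400043 siRNA 2 (9.72 and 9.74).

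The siRNAs against one lncRNA were then compared directly. Between LINC00324 siRNA 1 and siRNA 2, 3 of the 9 genes were called: HMGA2 and the chromosome 1 probe set named ARID3B were higher with siRNA 1, where 2.28% of all genes were, and NR6A1 was lower, where 0.785% of all genes were. The chromosome 1 probe set differed by 0.70 (SE 0.08, limma adjusted p = 0.0170). Without either scramble array only NR6A1 was called (limma adjusted p = 0.0450), and HMGA2 was not called without LINC00324 siRNA 1 replicate 2 (limma adjusted p = 0.0511). Without LINC00324 siRNA 2 replicate 1 or 2, the calls between these siRNAs ended for all genes alike, so this was not particular to the 9. NR6A1 then differed by -0.95 and -0.99, HMGA2 by 0.62 and 0.85, and the chromosome 1 probe set by 0.74 and 0.67. With the mean of both siRNAs, which gives each the same weight, 2 of the 9 genes fell for LINC00324 (PLAGL2 by 0.75 and NR6A1 by 0.60), where 0.281% of all genes were called lower. For LOC400043, 4 fell with the mean of both (HMGA2 by 0.61, IGF2BP3 by 0.52, IGF2BP1 by 0.28 and IGF2BP2 by 0.26), where 11.5% of all genes were called lower. None of the 9 was called higher in either mean, where 0.195% of all genes were for LINC00324 and 6.08% for LOC400043. The IGF2BP1 and IGF2BP2 calls in that mean ended without any one of 5 arrays, scramble replicate 2 and the 4 LOC400043 arrays, with limma adjusted p from 0.0511 to 0.0789, and the count without any one of them was 2.

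The authors' deposited table gives the same difference of means with an unadjusted p-value from one comparison of the 4 siRNA arrays with scramble. For LINC00324, the authors' deposited table lists PLAGL2 at -0.746 (p = 8e-05) and IGF2BP2 at -0.65 (p = 0.00265). The genes that differed between the siRNAs have larger p-values in the authors' deposited table, with NR6A1 at -0.601 (p = 0.10643) and HMGA2 at -0.399 (p = 0.16335). For LOC400043, the authors' deposited table lists HMGA2 at -0.608 (p = 0.00015) and IGF2BP3 at -0.524 (p = 0.00082), and PLAGL2, which lay on opposite sides of scramble with the 2 siRNAs, at -0.112 (p = 0.54367).

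Other genes of the let-7 pathway give the setting of these differences. Of 31 other let-7 targets, 28 were measured. None of them was called with LINC00324 siRNA 1, and with LINC00324 siRNA 2 3 fell, ONECUT2 by 0.63 (limma adjusted p = 0.0257), TGFBR1 by 0.61 (limma adjusted p = 0.0261) and CCNJ by 0.53 (limma adjusted p = 0.0360), where 1.34% of all genes were called lower. The median of the 28 was 0.01 with siRNA 1 and 0.02 with siRNA 2, beside 0.02 and 0.01 over all genes. With LOC400043 siRNA 1, 6 of the 28 fell and 1 rose, where 7.46% of all genes were called lower and 4.05% higher. With siRNA 2, 6 fell and 4 rose, where 13.8% of all genes were called lower and 7.9% higher. The medians of the 28 were -0.07 and 0.05. CCND2 and CDK6, a cyclin and a kinase that drive entry into the cell cycle, fell with both LOC400043 siRNAs, CCND2 by 0.59 and 0.49 and CDK6 by 0.58 and 0.60. MYC fell by 0.53 with LOC400043 siRNA 2 (limma adjusted p = 0.00251), and its difference with siRNA 1 was -0.24 (limma adjusted p = 0.0637). In the LINC00324 table the same genes were not called, with CDK6 at 0.52 (limma adjusted p = 0.0722) and 0.04, CCND2 at -0.09 and -0.45 (limma adjusted p = 0.0554), and MYC at -0.10 and 0.10. HRAS, a small GTPase of growth factor signalling, rose by 0.47 with LOC400043 siRNA 2, so these let-7 targets moved in both directions.

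Of 19 genes of microRNA maturation and let-7 decay, 18 were measured and none was called with either LINC00324 siRNA. Of all genes, 0.498% and 1.85% were called with LINC00324 siRNA 1 and 2, in either direction. DICER1, which cuts precursors to mature microRNAs, differed by -0.12 and -0.35 with LINC00324 siRNA 1 and 2 (limma adjusted p = 0.551 and 0.0776) and by 0.14 and -0.13 with the LOC400043 siRNAs. AGO1 rose by 0.25 with LOC400043 siRNA 1 and fell by 0.44 with siRNA 2, and AGO3 rose by 0.30 with siRNA 2. These were the only calls of the 18 with the LOC400043 siRNAs. Of all genes, 4.05% were called higher and 7.46% lower with LOC400043 siRNA 1, and 7.9% higher and 13.8% lower with siRNA 2. LIN28A, which the tables also name on different probe sets, differed by 0.26 and 0.03 with the LINC00324 siRNAs (SE 0.20). It differed by -0.26 and -0.08 with the LOC400043 siRNAs (SE 0.19), none called. Its mean levels, 5.73 in the LINC00324 table and 4.98 in the LOC400043 table, lay well below the array medians, so a change could easily be missed. Of 17 let-7 genes and hosts, 14 were measured, 4 of them with a mean level under 5. No let-7 hairpin was called with any siRNA. The host gene HUWE1 fell with both LOC400043 siRNAs, by 0.38 (limma adjusted p = 0.0143) and 0.34, and the host gene WDR82 by 0.41 with siRNA 2. Thus 1 of the 14 was called lower with LOC400043 siRNA 1 and 2 with siRNA 2, close to the 7.46% and 13.8% of all genes.

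Of 11 oncofetal genes and relatives of the 9, 7 were measured, and IGF2, the growth factor whose mRNA the IGF2BP proteins bind, was not analysed here. GPC3, an oncofetal cell-surface proteoglycan, fell by 0.91 with LINC00324 siRNA 2 (SE 0.08, limma adjusted p = 0.0113) and its difference with siRNA 1 was -0.32 (limma adjusted p = 0.163). GPC3 also fell by 0.51 with LOC400043 siRNA 1 (limma adjusted p = 0.00518) and by 0.36 with siRNA 2 (limma adjusted p = 0.00843). PLAG1, the relative of PLAGL2, fell by 0.41 with LOC400043 siRNA 1 and rose by 0.67 with siRNA 2, in the same order as PLAGL2 on those arrays. PEG10, an imprinted gene derived from a retrotransposon, rose by 0.51 with LOC400043 siRNA 1. Of the 7, 1 was called lower with LINC00324 siRNA 2, where 1.34% of all genes were. For LOC400043 siRNA 1, 2 were called lower and 1 higher, where 7.46% and 4.05% of all genes were. For LOC400043 siRNA 2, 1 was called lower and 1 higher, where 13.8% and 7.9% of all genes were.

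**Figure D3:**
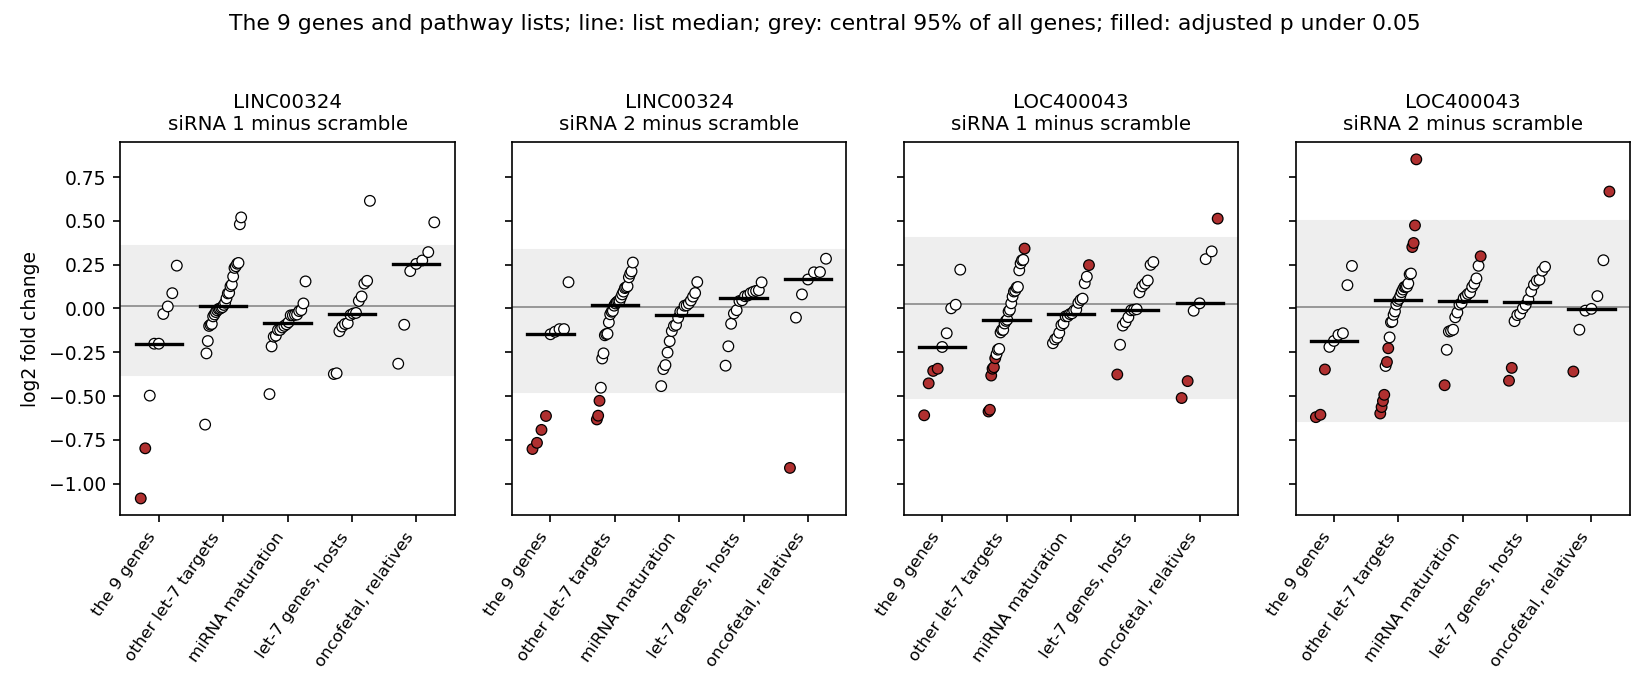
Log2 difference from scramble for the 9 genes and 4 pathway lists (points) with list medians (black lines), one panel per siRNA; the grey band holds the central 95% of all genes and filled points are called at an adjusted p under 0.05. With LINC00324 siRNA 1 only 2 points are filled, both among the 9 genes, while with LOC400043 siRNA 2 filled points among the other let-7 targets lie on both sides of 0, among them CDK6 at -0.60 and HRAS at 0.47.

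The genes most like each of the called members were sought over the 4 differences from scramble, by the root mean square difference across 18229 probe sets present in both tables, which leaves out ARID3B. Nearest to HMGA2 were CALCB, at a root mean square difference of 0.0671, and NID2, at 0.0868. CALCB differed by -0.02, -0.82, -0.50 and -0.55 with LINC00324 siRNA 1 and 2 and LOC400043 siRNA 1 and 2, with little difference with the first, as for HMGA2. Nearest to PLAGL2 were TBC1D9 (0.111) and FAXDC2 (0.162), both with a positive difference with LOC400043 siRNA 2. Nearest to NR6A1 were OTUD4 (0.136) and SAMM50 (0.155). IGF2BP2 was nearest to ARHGAP29 (0.0710) and SLC6A16 (0.0808). The closest matches were those of IGF2BP1 and IGF2BP3, with RMND5B (0.0273) and UNC119B (0.0278) nearest to IGF2BP1 and MTA1 (0.0355) and CTNS (0.0380) nearest to IGF2BP3. The members share no gene among these nearest ones, but only 2 of 18229 probe sets were kept per member, so no conclusion is drawn from this. The 4 differences share their scramble arrays within a table.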

How the data were processed

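Total RNA of 10 HEK-293 cultures was measured, 2 per group. The authors deposited log2 values made with RMA, per the submitters' processing notes, which also name limma; the sources used here give no version, genome build or annotation release. Each of 2 tables covers 6 arrays and 18480 genes, and also holds the authors' deposited difference and unadjusted p-value. The scramble columns of the tables differ by a median of 0.12 and 0.116, so each table was fitted alone. A deposited table of all arrays (33297 probe sets) holds the LINC00324 normalization for scramble and LINC00324 arrays and the LOC400043 normalization for the others, with a largest difference of 0, so it was used for no comparison of LOC400043 siRNAs with scramble.

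A linear model with 3 groups (scramble, siRNA 1, siRNA 2), no filter and 3 residual degrees of freedom was fitted to each table by limma 3.58.1 (R 4.3.3), with moderated two-sided tests of each contrast. The script was tested on simulated data. Benjamini-Hochberg adjustment covered all 18480 genes, and adjusted p under 0.05 was called. Symbols were updated through RefSeq (GRCh38.p14): accessions named 17319 genes of the LINC00324 table, symbols 429, former symbols 343, and 389 kept their name. Coordinates are the tables' own, and the number of arrays, 2 per group, limits precision. The members and gene lists were chosen with earlier results of these data known. Named genes are all 9 members, up to 4 called genes per list and contrast by smallest p, 6 set genes (LIN28A, DICER1, MYC, CDK6, CCND2 and IGF2), and 2 nearest genes per called member; 1 gene that this rule names is not reported here. The settings varied were an intensity trend, the replicate number as a block, removal of genes whose mean log2 was under 5, a further quantile normalization, median centring, the all-array table, 4 siRNA arrays as one group, and leaving out each array. Same-numbered replicates did not deviate together in every pair, with correlations of 0.6, -0.18 and -0.38 in the LINC00324 table. The LOC400043 table gave 0.23, 0.37 and 0.09, all positive. Whether the numbers pair samples is thus unsettled, and the main fit used no block.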

Additional observations from a re-analysis of the deposited data

Results flagged for a closer look

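In 4 cases the siRNAs against one lncRNA gave different results for one of the genes, by limma's test of siRNA 1 minus siRNA 2. HMGA2 differed by 0.74 between the LINC00324 siRNAs (limma adjusted p = 0.0225), with 8.44 and 8.50 with siRNA 1 against 7.62 and 7.86 with siRNA 2. The chromosome 1 probe set named ARID3B differed by 0.70 between the same siRNAs (limma adjusted p = 0.0170), and the chromosome 15 probe set by 0.30 (limma adjusted p = 0.335). NR6A1 differed by -0.97 between them (limma adjusted p = 0.0120), lower with siRNA 1. PLAGL2 differed by -0.49 between the LOC400043 siRNAs (limma adjusted p = 0.00359), with siRNA 1 below scramble and siRNA 2 above it. Why the siRNAs differ was not tested. No level of LOC400043 was analysed here, and LINC00324 measured 5.37 and 5.03 with siRNA 1 and 5.24 and 5.60 with siRNA 2.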

How the results depend on the processing

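No called value of the 9 genes changed direction under any alternative that was run, but most alternatives could not change one. The intensity trend, the filter, the block, the all-array table and the 4 siRNA arrays as one group leave each difference as it is. For every called value the compared arrays did not overlap, so leaving out 1 array could not reverse it either. The numbers of called genes moved by more than 1.5 times as follows. With an intensity trend, 4 genes were called with LINC00324 siRNA 1 (2 without it), 6 with the mean of both LINC00324 siRNAs (2 without it), 5 with LOC400043 siRNA 2 (3 without it) and 5 between the LOC400043 siRNAs (1 without it). The trend also raised the calls over all 18480 genes, from 92 to 931, 88 to 1073, 4016 to 5143 and 3165 to 4297, in the order given. With the all-array table, 5 were called with the mean of both LINC00324 siRNAs, and 854 of all genes. With the 4 siRNA arrays as one group, 1 was called for LINC00324 and 2 for LOC400043. Between the LOC400043 siRNAs, 2 were called with a filter on dim genes, with a second quantile normalization and with median centring. With the replicate block, 3 were called between the LOC400043 siRNAs, where HMGA1 (limma adjusted p = 0.0128) and LIN28B (limma adjusted p = 0.0417) joined PLAGL2. The block gave 4 with LOC400043 siRNA 2 and 2 and 4 with LINC00324 siRNA 1 and 2. Whether the replicate numbers pair the samples is unsettled.

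Leaving out each array in turn gave 0 to 2 called genes with LINC00324 siRNA 1, 0 to 4 with siRNA 2, 0 to 3 with the mean of both and 0 to 3 between the siRNAs. For LOC400043 it gave 0 to 4 with siRNA 1, 2 to 4 with siRNA 2, 2 to 4 with the mean of both and 1 to 3 between the siRNAs. Where a group was left with 1 array, its spread was taken to be that of the other groups. In the settings that gave 0 called genes, the calls over all genes became far fewer or ended as well. LIN28B with LOC400043 siRNA 2 was called under the filter, the trend, the block, the second normalization and the centring, with values from 0.24 to 0.31. Comparisons of LINC00324 siRNAs with LOC400043 siRNAs, and of LOC400043 siRNAs with scramble in the all-array table, were not run because that table mixes 2 normalizations.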
